A study of Mus musculus with 12 samples.

Results

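The accessible chromatin of microglia was set against that of neuronal nuclei in wild-type (WT) mouse forebrain, with 2 ATAC-seq libraries for each cell type. ATAC-seq cuts open chromatin with the Tn5 transposase, so a peak marks a stretch of DNA that the enzyme could reach. The 4 libraries came from C57BL/6 mice aged 4 months and were part of a series of 12 libraries that also holds SgshKO mice and Olig2+ nuclei. No gene was altered in the 4 libraries compared here. Microglia were live forebrain cells sorted as CD11b+, CD45low and CX3CR1+. Neuronal nuclei were taken from lightly formaldehyde-fixed tissue and sorted as NEUN+ and negative for PU.1 and OLIG2, which leaves all NeuN+ neuronal subtypes mixed. Live cells against fixed nuclei and microglia against neurons cannot be told apart in this design. Whether replicate libraries came from separate animals is not given in the sources used here, so p-values measure only the spread between these libraries.

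Peaks were matched by position. A microglia peak and a NeuN+ peak formed a one-to-one pair where each covered at least 50% of the other and neither had another such partner. This gave 24964 pairs, which were 27.2% of the 91770 microglia peaks and 23.2% of the 107627 NeuN+ peaks. A further 61567 microglia peaks (67.1%) overlapped no NeuN+ peak by a single base, and 77609 NeuN+ peaks (72.1%) overlapped no microglia peak. The remaining 5239 microglia and 5054 NeuN+ peaks overlapped in other ways and entered no test. In bases, 25.5% of the microglia peak set and 19.8% of the NeuN+ peak set were shared. Each table merges peaks of WT and SgshKO libraries, so some peaks may be listed because of the SgshKO libraries. Tags were counted only in a sort's own peaks. The level of the other cell type at an unpaired peak is therefore unknown, and an unpaired peak is not evidence of closed chromatin there.

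Microglia are the resident macrophages of the brain. Their enhancers are shaped by the ETS factor PU.1 (gene Spi1) together with IRF8, SALL1, MEF2, C/EBP and SMAD factors, and they clear debris and prune synapses through receptors such as TREM2 and through complement. NeuN is the splicing factor RBFOX3 of mature neurons. Promoters of widely used genes lie in CpG-rich DNA and are open in most cells, whereas distal enhancers differ far more between cell types.

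WT libraries held 11571268 and 11804222 tags in microglia and 17653808 and 17706971 tags in NeuN+ nuclei. Peaks took 55.8% and 48.7% of the microglia tags and 26.7% and 25.9% of the NeuN+ tags, so more of each microglia library lay in peaks although its depth was lower. Replicates correlated across the pairs with a Pearson r of 0.963 in microglia and 0.974 in NeuN+ nuclei, against 0.529 to 0.532 between the cell types. These correlations are across peaks, which are not independent replicates. The sorts carried their labels' markers. All 10 microglial marker genes had a start-site peak in microglia, with summed normalized tags of 2682 and 2339, and 1 of the 10 had one in NeuN+ nuclei. All 10 neuronal markers had one in NeuN+ nuclei (sums 1320 and 1218), and 3 of 10 (Tubb3, Slc17a7 and Camk2a) in microglia (280.0 and 320.2). Endothelial markers had start-site peaks at 3 of 10 genes in microglia (sums 284 and 236) and 2 of 10 in NeuN+ nuclei (19.3 and 19.8). Cldn5 and Cdh5, which define endothelium, had none in either. Oligodendrocyte markers had them at 6 of 10 genes in microglia (357 and 321) and 5 of 10 in NeuN+ nuclei (192.0 and 166), with none at Mag, Mobp or Sox10 in either. Astrocyte markers had them at 5 and 4 of 10 genes (241 and 202 against 242 and 225), with none at Gfap, Aqp4 or Gja1. Blood myeloid markers had them at 2 of 10 genes in microglia (45.8 and 41.5) and at 0 of 10 in NeuN+ nuclei. The part of such cells in the results was not tested.

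Promoter sequences from RefSeq (GRCm38.p6, the build that mm10 also names) show what lies under the start-site peaks that the comparison turns on. Rassf5, a Ras effector of leukocytes, and C1qc, a chain of complement C1q, had a peak in microglia only at the start site shown. For Rassf5 the NeuN+ table held a start-site peak elsewhere. Cd68, a lysosomal glycoprotein of macrophages, had a paired peak with more tags in microglia. Syn1, the synaptic vesicle protein synapsin, and Cadm2, a synaptic adhesion molecule, had paired peaks with more tags in NeuN+ nuclei. Camk2b, a subunit of the synaptic kinase CaMKII, had a peak in NeuN+ nuclei only. Each line gives the 250 bases before the start site on the gene's own strand, 5′ to 3′, with matches to the motifs described next in capitals.
Rassf5: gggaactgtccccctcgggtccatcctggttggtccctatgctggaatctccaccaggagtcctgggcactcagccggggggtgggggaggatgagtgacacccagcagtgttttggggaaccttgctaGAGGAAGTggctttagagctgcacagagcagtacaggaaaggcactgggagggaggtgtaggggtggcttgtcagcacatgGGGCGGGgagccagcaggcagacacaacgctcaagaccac
C1qc: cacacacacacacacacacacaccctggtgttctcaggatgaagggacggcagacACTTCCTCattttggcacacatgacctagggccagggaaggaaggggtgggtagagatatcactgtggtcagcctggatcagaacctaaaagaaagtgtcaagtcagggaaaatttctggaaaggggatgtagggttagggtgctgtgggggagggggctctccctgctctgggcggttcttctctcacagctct
Cd68: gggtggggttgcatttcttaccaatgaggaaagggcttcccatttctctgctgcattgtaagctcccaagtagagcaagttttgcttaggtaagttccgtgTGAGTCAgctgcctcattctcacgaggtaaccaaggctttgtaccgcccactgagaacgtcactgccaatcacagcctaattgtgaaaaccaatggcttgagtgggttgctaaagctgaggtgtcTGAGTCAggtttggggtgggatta
Syn1: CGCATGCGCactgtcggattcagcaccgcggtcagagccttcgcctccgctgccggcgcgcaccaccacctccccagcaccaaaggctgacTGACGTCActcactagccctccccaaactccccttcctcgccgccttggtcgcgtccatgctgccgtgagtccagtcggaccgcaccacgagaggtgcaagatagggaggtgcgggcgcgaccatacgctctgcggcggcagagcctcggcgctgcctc
Cadm2: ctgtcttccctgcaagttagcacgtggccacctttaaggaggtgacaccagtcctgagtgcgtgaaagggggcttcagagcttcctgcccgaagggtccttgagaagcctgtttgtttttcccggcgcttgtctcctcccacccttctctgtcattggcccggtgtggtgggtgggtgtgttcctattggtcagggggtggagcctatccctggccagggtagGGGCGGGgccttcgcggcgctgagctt
Camk2b: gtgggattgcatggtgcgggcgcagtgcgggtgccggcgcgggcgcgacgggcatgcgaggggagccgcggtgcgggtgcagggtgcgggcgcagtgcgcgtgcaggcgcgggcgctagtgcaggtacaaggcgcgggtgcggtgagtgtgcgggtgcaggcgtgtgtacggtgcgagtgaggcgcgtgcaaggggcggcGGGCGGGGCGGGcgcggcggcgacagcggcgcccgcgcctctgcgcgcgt
The windows lie at chr1:131200186-131200435 (Rassf5, minus strand), chr4:136892915-136893164 (C1qc, minus), chr11:69666171-69666420 (Cd68, minus), chrX:20920919-20921168 (Syn1, minus), chr16:67620909-67621158 (Cadm2, minus) and chr11:6065749-6065998 (Camk2b, minus). The capitals mark a PU.1 and an SP/KLF match in Rassf5, a PU.1 match on the reverse strand in C1qc, 2 AP-1 matches in Cd68, an NRF1 and a CRE match in Syn1, 1 SP/KLF match in Cadm2 and 2 overlapping SP/KLF matches in Camk2b. GC content of the printed bases ran from 49.2% in Cd68 to 78.4% in Camk2b.

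Motif letters were searched on both strands in 32817 RefSeq promoter windows of 300 bases (250 before to 50 after a start site), sorted by the peaks they overlapped. The PU.1 letters GAGGAAGT were in 8.53% of the 2156 windows with a microglia peak only, in 2.68% of the 10666 with peaks of both tables, in 1.54% of the 2659 with a NeuN+ peak only, and in 3.2% of all windows. The general ETS letters CCGGAAG, which share GGAAG with the PU.1 letters, were instead most frequent where both tables had a peak: 6.03%, 20.9%, 4.4% and 8.86% in the same order. The NRF1 letters GCGCATGCG (0.371%, 4.54%, 1.24%, 1.75%), the CRE letters TGACGTCA (0.881%, 3.78%, 1.92%, 1.79%) and the SP/KLF letters GGGCGGG (27.3%, 53.8%, 30.7%, 25.6%) were likewise most frequent where both tables had a peak. The IRF letters GAAANNGAA were in 10.6%, 5.87%, 7.07% and 8.55%, and the E-box letters CAGATGG in 4.68%, 3.0%, 6.84% and 5.31%. The AP-1 letters TGANTCA were in 7.84%, 3.92%, 6.88% and 7.81%, and the MEF2 letters CTAAAAATA in under 1% of every class (0.51%, 0.206%, 0.752% and 0.518%). Windows with peaks of both tables were richer in GC (63.2%) than those of microglia only (56.2%), NeuN+ only (58.4%) or all windows (53.8%), and this base composition differs alongside the motif shares. Among windows of paired peaks, those called at least 4-fold higher in NeuN+ nuclei held the NRF1 letters in 11.0% of 236 and those called at least 4-fold higher in microglia in 1.43% of 700. The matching shares were 5.08% and 8.43% for AP-1, and 1.27% and 4.43% for PU.1. These shares are descriptions of letters, without a test.

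Start sites of genes were mostly open in both cell types. Of 15463 genes with a peak within 1000 bp of a start site in either table, 11062 (71.5%) had one in both, 2067 in microglia only and 2334 in NeuN+ nuclei only. Of such protein-coding genes 74.6% had a start-site peak in both tables, and of such non-coding RNA genes 42.7%. These are counts of genes, and the peaks of a gene in the 2 tables need not overlap. Most microglial receptor and effector genes had no start-site peak in the NeuN+ table. Of 26 microglial receptor and surface genes 23 had a start-site peak in microglia only, 2 in both and 1 in neither. Of 26 genes for microglial effectors and signalling 17 had one in microglia only and 7 in both. Neither list had a gene with a NeuN+ peak only. Among 17 myeloid transcription factors only 5 were microglia-only (Spi1, Sall1, Runx1, Fli1 and Irf5) and 11 had a peak in both tables.

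Tags at these microglia-only start sites ranged from low to high between genes. All values are normalized to 10000000 tags per library. Spi1, which encodes PU.1, had 386 and 349 tags. Sall1, which encodes a zinc-finger factor of microglial identity, had 270.0 and 265. Tmem119, a microglial surface marker, had 439.9 and 412, and the fractalkine receptor Cx3cr1 had 271 and 241. The complement genes C1qa, C1qb and C1qc had 347 and 297, 841 and 808, and 493 and 452. C1qb had the highest start-site peak of all list genes in microglia. The lowest of the effector and receptor lists were the lipid carrier gene Apoe (25.9 and 27.1) and the kinase gene Btk (32.8 and 26.3), with the purinergic receptor P2ry12 at 38.0 and 21.2, so a gene strongly tied to microglia did not always have a high start-site peak.

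Neuronal lists showed the reverse. Of 17 glutamatergic genes 11 had a start-site peak in NeuN+ nuclei only and 6 in both. The numbers were 9 and 1 of 14 for GABAergic genes, 11 and 7 of 18 for presynaptic and cytoskeletal genes, and 7 and 9 of 16 for ion channels, with 0 microglia-only genes in all 4 lists. Syt1, the vesicle calcium sensor synaptotagmin, had 178 and 174 tags in its NeuN-only peak, and Map2, a dendritic microtubule protein, 156 and 163. The AMPA receptor gene Gria2 had 126 and 127, and the calcium channel gene Cacna1b 125 and 127. The interneuron genes Gad1 (13.03 and 7.91) and Gad2 (11.33 and 10.2), which make GABA, lay far below the glutamatergic Camk2b (120.1 and 129). In bulk nuclei, fewer cells of a type and less accessibility per cell cannot be told apart. Neuronal transcription factors did not follow the list's name throughout: 12 of 21 were NeuN-only, 7 in both, and the interneuron factors Dlx2 (58.8 and 51.7 tags) and Lhx6 (12.96 and 16.9) had a start-site peak in microglia only.

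**Figure D1:**
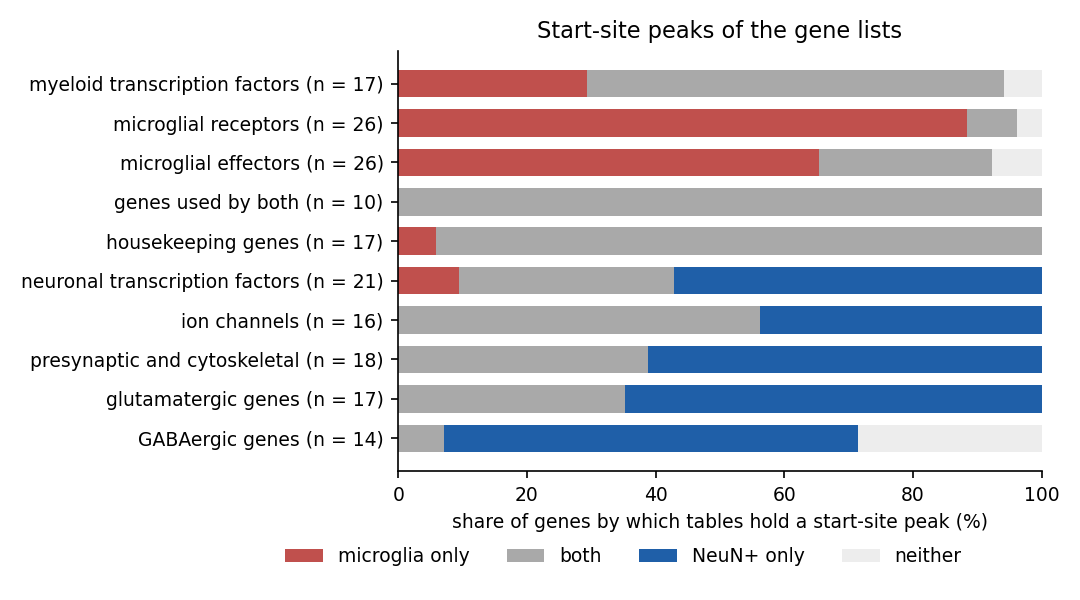
Stacked bars of the share of genes in each list (x axis, %) that had a start-site peak in microglia only, in both tables, in NeuN+ nuclei only or in neither. Microglial receptors were microglia-only at 23 of 26 genes, while the 4 lists of neuronal channel, synapse and transmitter genes held 0 microglia-only genes.

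Unpaired peaks were distal. Of the one-to-one pairs 54.1% lay within 1000 bp of a start site, against 12.7% of microglia-only and 9.67% of NeuN-only peaks. Promoter annotation fell on 42.1%, 6.87% and 5.57%, and introns on 28.8%, 52.2% and 52.4%. CpG island annotation covered 7.69% of pairs, 2.1% of microglia-only and 1.34% of NeuN-only peaks. NeuN-only peaks lay more often in exons (5.32% against 2.94%), and exons, 3′ UTRs and transcription end sites together held 10.2% of NeuN-only and 6.23% of microglia-only peaks. Paired peaks were also the ones seen in another cell type: 73.0% overlapped a peak of the Olig2+ table, against 10.3% of microglia-only and 16.9% of NeuN-only peaks. These shares are descriptions with no test, as peaks are not replicates.

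**Figure D2:**
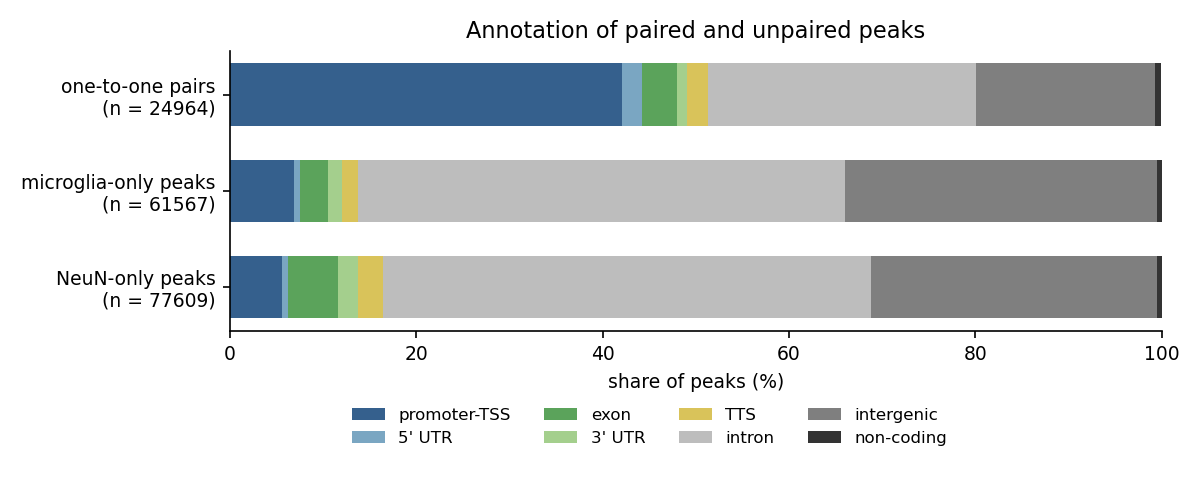
Stacked bars of the share of peaks (x axis, %) in each annotation class for the 24964 pairs (microglia annotation), the 61567 microglia-only and the 77609 NeuN-only peaks. The promoter class takes 42.1% of pairs against 6.87% and 5.57% of the unpaired sets.

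Levels at unpaired peaks differed between the tables. A microglia-only peak had a median of 27.65 and 23.7 tags in the WT libraries, and a NeuN-only peak 10.8 and 10.7. At least 10 tags in both WT libraries were reached by 86.8% of microglia-only but 46.4% of NeuN-only peaks. High peaks were paired more often. Of the 25% of microglia peaks with most tags 41.7% were paired, against 14.2% of the 25% with fewest, and in NeuN+ nuclei 51.9% against 6.21%.

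Unpaired peaks on the numbered chromosomes and X, 1 per nearest gene, were ranked by mean tags. Among the 5 highest microglia-only peaks near a start site were C1qb, Tmcc3 (953 and 707 tags; 830.3 ± 174, SD, n = 2), the G protein subunit Gna15 (811 and 755) and Rassf5 (782 and 667). The highest was a peak in an intron of the non-coding gene Gm21057 with 946 and 824 tags, and a NeuN+ peak of 11.33 and 8.47 tags lay 180 bp away. Gm21057, Tmcc3 and Rassf5 also had a start-site peak in the NeuN+ table, whereas C1qb and Gna15 did not. Farther from start sites the highest were nearest to Fance (1099 and 990 tags, chr17:28294482-28294776, an intron of Ppard, which encodes the nuclear receptor PPAR-delta), the actin-binding protein gene Cotl1 (1054 and 976, chr8:119812964-119813375, in its intron 3), the stress kinase gene Mapk8 (1083 and 915) and Chmp6 (1063 and 901), together with 1 nearest to A830052D11Rik (1001 and 971). None of these 5 distal peaks had a NeuN+ peak within 1000 bp, the nearest being 1341 bp away for Cotl1.

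The highest NeuN-only start-site peaks showed the limit of matching by position. Those at Cactin (518 and 460 tags) and Rab40c (432 and 408) lay 19 and 20 bp from microglia peaks with 451 and 391, and 700.0 and 602 tags, and that at Wdfy2 (321 and 291) lay 34 bp from a microglia peak of 134 and 104 tags. At these 3 start sites both tables had a high peak side by side. The peaks at 3110070M22Rik (368 and 329) and 5330417C22Rik (317 and 314) lay 136 and 119 bp from microglia peaks of only 19.9 and 32.2, and 13.8 and 14.4 tags. Distal NeuN-only peaks were highest near Bicdl1 (324 and 346), 9330104G04Rik (248 and 252), Nol4 (248 and 230), the membrane-shaping paralemmin gene Palm (237 and 212) and the imprinted zinc-finger gene Peg3 (224 and 220). The nearest microglia peak lay 885 bp away for Bicdl1 (31.1 and 33.9 tags), 4542 bp for 9330104G04Rik, 8375 bp for Palm, 345099 bp for Peg3 and 764243 bp for Nol4.

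Unpaired peaks gathered along certain genes. Runx1, a haematopoietic transcription factor, was the nearest gene of 92 microglia-only peaks and 6 NeuN-only peaks, and 56 of the 92 lay within its own RefSeq gene body. The other genes with most microglia-only peaks were Sipa1l2 (87), Elmo1 (82), an engulfment adaptor that acts on Rac, Pag1 (75), Frmd4a (74), and Rreb1, Ski and Zfhx3 with 70 each, all 70 of Zfhx3 inside the gene. Ski encodes a repressor of SMAD signalling. In NeuN+ nuclei the gene with most was Rbfox3, which encodes NeuN itself, with 145 NeuN-only and 0 microglia-only peaks and 141 of the 145 inside the gene. Celf4 had 137, Phactr1 115, Lingo1 93, Ank3 92, which encodes the axon initial segment protein ankyrin-G, and Anks1b and Dclk1 91 each. Rbfox3 spans 422 kb, and the part of gene length in these counts was not tested. The NeuN-only peaks near Rbfox3 had a median of 11.9 tags and the microglia-only peaks near Runx1 one of 26.1, both close to the medians of all unpaired peaks of their tables (10.75 and 25.7). By lists, myeloid factors held 526 microglia-only peaks of their 591 microglia peaks, and glutamatergic genes 386 NeuN-only of 408 NeuN+ peaks. Those are 89.0% and 94.6%, beside 67.1% and 72.1% over the whole tables.

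Repeats differed between the unpaired sets. Among distal peaks with at least 10 tags in both WT libraries, 5.48% of the 46320 microglia-only peaks were annotated to an ERVL-MaLR element, a family of old mouse LTR retrotransposons, against 1.66% of the 31273 NeuN-only and 1.35% of the 10640 paired peaks. The ORR1E subfamily gave 363 microglia-only and 27 NeuN-only peaks, and MTD 409 and 47. ERVK elements were at 1.53% and 0.537%, and LINE L1 at 2.72% and 1.47%. The LTR classes ERV1 (0.494% and 0.157%) and ERVL (0.928% and 0.678%) were also higher in microglia-only peaks. So were the SINE classes B2 (1.12% and 0.742%), B4 (1.47% and 0.902%), Alu (0.956% and 0.384%) and MIR (0.974% and 0.515%). LINE L2 copies did not follow (0.721% and 0.822%). Simple repeats (0.335% and 0.681%) and low-complexity stretches (0.214% and 0.422%) were lower in microglia-only peaks. These are counts of annotations, and reads that map to several copies may have been handled in ways not given in the sources used here.

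Levels could be compared between the cell types at the 24964 paired peaks. The intervals of a pair were not identical: the smaller overlap share had a median of 78.1%, and 11124 pairs reached 80%. These levels were set across 2 tables that the authors counted separately but scaled to the same library total. With the linear model of limma on log2(tags + 1) and Benjamini-Hochberg adjustment, 13126 pairs (52.6%) were higher in microglia and 4208 (16.9%) higher in NeuN+ nuclei at an adjusted p under 0.05. The median difference over all pairs was 0.61 on this log2 scale toward microglia. Scaling by the median ratio over the pairs removes that shift, and 8378 (33.6%) and 8452 (33.9%) were then called, so microglia held 75.7% of the calls by library total and 49.8% by median ratio. All 8378 were also called higher in microglia by library total, and all 4208 calls higher in NeuN+ nuclei by library total were kept, while 57 pairs were called in opposite directions by the 2 scalings. With edgeR's quasi-likelihood test on reads recovered from the tags (100% of values within 0.01 of a whole read), 8570 and 8507 pairs were called with TMM scaling. Differences of at least 4-fold were called at 3637 pairs for microglia and 395 for NeuN+ nuclei, or 1912 and 1112 by median ratio. WT libraries of the 2 sorts overlapped at 63 of the 17334 called pairs.

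**Figure D3:**
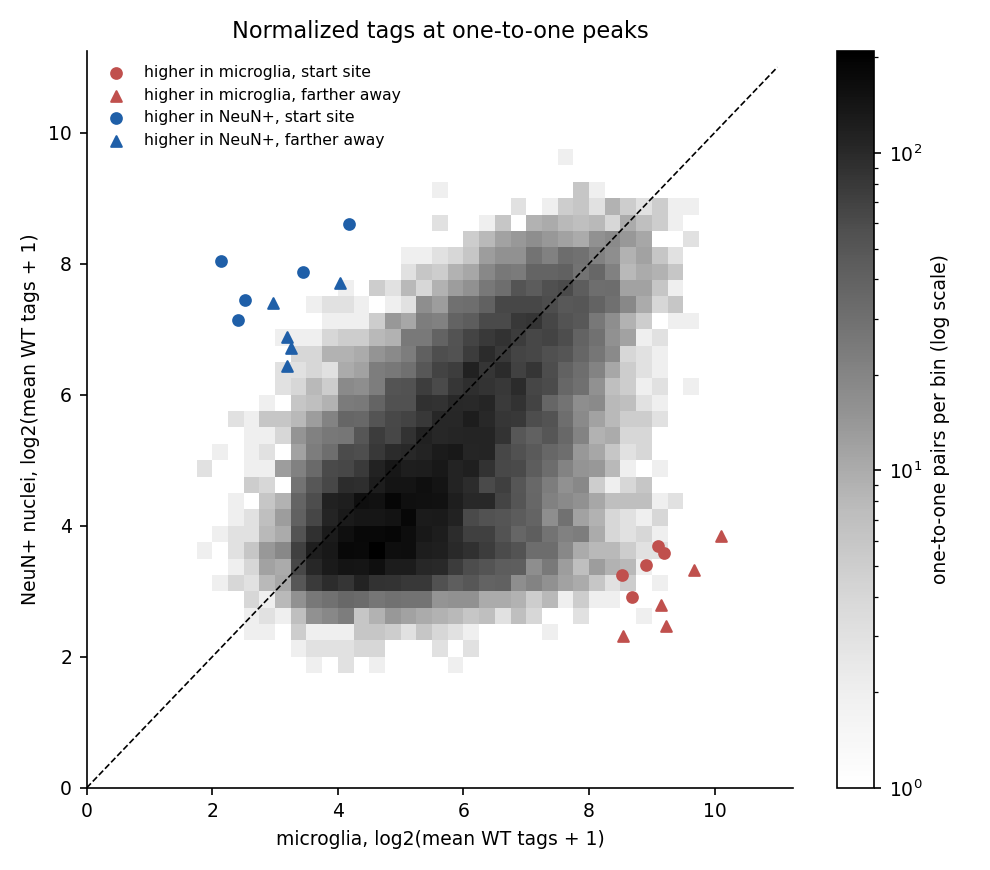
Normalized tags at one-to-one peaks, as log2(mean of 2 WT libraries + 1), in microglia (x axis) and NeuN+ nuclei (y axis); grey shows the number of pairs per bin on a log scale, the dashed line equal values, and coloured points the 20 pairs with the largest called differences that are named in the text. Most of the grey mass lies below the line, at the median difference of 0.61.

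Distal pairs leaned further toward microglia than start-site pairs. The median difference was 0.90 at the 11469 distal and 0.37 at the 13495 start-site pairs, or 0.29 above and 0.24 below the median of all pairs. Distal pairs were called for microglia at 6891 and for NeuN+ nuclei at 1117, and start-site pairs at 6235 and 3091. By median ratio the counts were 4684 and 2512 at distal pairs and 3694 and 5940 at start-site pairs, so the majority at start sites turned with the scaling and that at distal pairs did not. Pairs absent from the Olig2+ table had a median of 0.95, against 0.50 for those that overlapped an Olig2+ peak. The median start-site pair had 65.9 tags in microglia and 48.4 in NeuN+ nuclei, and the median distal pair 33.5 and 16.1.

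**Figure D4:**
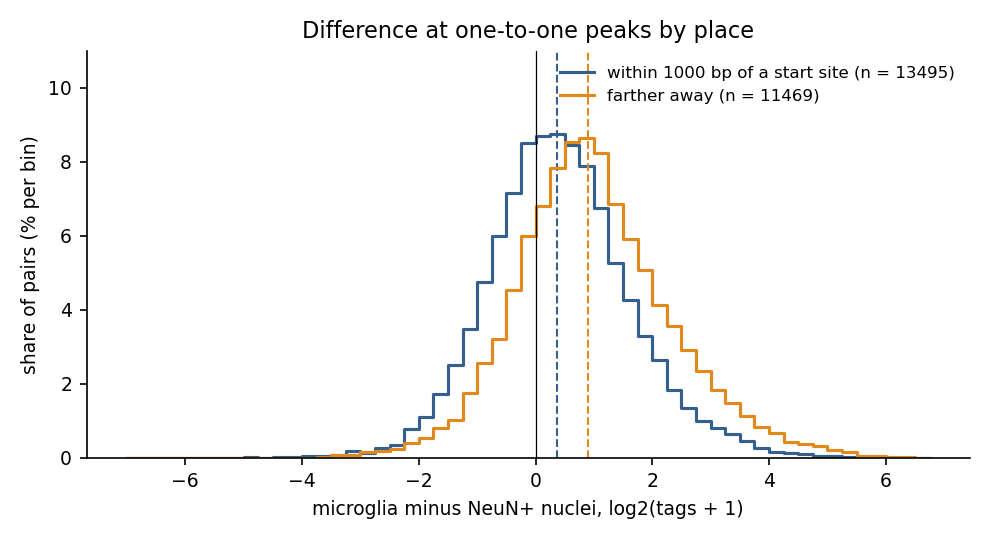
Share of pairs (y axis, % per bin of 0.25) by the difference microglia minus NeuN+ nuclei on the log2(tags + 1) scale (x axis), for start-site and distal pairs; dashed lines mark the medians of 0.37 and 0.90. The distal curve lies to the right of the start-site curve.

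The largest differences toward microglia reached 5.76 near start sites and 6.79 farther away. Near start sites the largest was at Dapp1, a phosphoinositide-binding adaptor of lymphocyte signalling, with 459 and 360.0 tags in microglia and 6.8 and 6.21 in NeuN+ nuclei (difference 5.76 ± 0.206, SE; limma adjusted p = 1.33e-28). Fam212a followed with 591 and 582 against 10.8 and 11.29, the class I MHC gene H2-K2 with 544 and 415 against 9.06 and 10.2, the microRNA gene Mir23a with 619 and 476 against 12.5 and 11.29, and the adhesion receptor gene Icam1 with 407 and 328 against 9.63 and 7.34. Their differences ran from 5.28 to 5.76. H2-K2 belongs to a family of similar genes, among which reads can be hard to assign. Farther away the largest was in intron 1 of Rasa3, a Ras GTPase-activating protein, at chr8:13674385-13674588 with 611 and 585 tags against 5.66 and 3.39 (6.79 ± 0.21, SE; limma adjusted p = 8.49e-31). The others were nearest to Rab11a, a recycling-endosome GTPase (583 and 547 against 6.23 and 5.65), Ccnd3, which encodes cyclin D3 (875 and 747 against 9.06 and 9.04), the long non-coding RNA Nron (1161 and 1040 against 11.33 and 15.3), and Maml3, a Notch coactivator (402 and 341 against 5.1 and 2.82). Pairs were named only where the libraries of the 2 sorts did not overlap.

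The largest difference toward NeuN+ nuclei was at the start site of 9530080O11Rik, which had 1.73 and 5.08 tags in microglia and 271 and 253 in NeuN+ nuclei (difference -6.01 ± 0.272, SE; limma adjusted p = 9.57e-25). Gnao1, the G protein subunit of the neuronal Go protein, had 13.8 and 20.3 against 393 and 387, and Dnm3, a dynamin of synapses, 5.19 and 3.39 against 137 and 144. Cadm2 had 10.4 and 9.32 against 229 and 236, and Crlf2, a cytokine receptor subunit, 5.19 and 4.24 against 171 and 175. Distal differences were smaller, from -3.39 to -4.51. Their nearest genes were Atad2b (4.32 and 9.32 against 159 and 176; its start site is 202549 bp away), Igfbp5, an insulin-like growth factor binding protein (6.05 and 10.2 against 111 and 124), Mir9-2, a neural microRNA gene (12.96 and 17.8 against 214 and 199), Mcf2l, a guanine nucleotide exchange factor (6.91 and 10.2 against 108 and 101), and Sycp2 (4.32 and 11.9 against 84.4 and 87.5). All 20 of these pairs kept their direction and an adjusted p under 0.05 in every alternative that tested them.

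Most myeloid and effector genes with a paired start-site peak had more tags in microglia. Among the myeloid factors 10 of 11 were higher in microglia and 1 lower, with a median of 2.48 against 0.37 for all start-site pairs, of which 46.2% were called higher in microglia and 22.9% lower. By median ratio the list's counts were also 10 and 1, against 3694 and 5940 of all 13495 start-site pairs. Each gene entered with its highest start-site pair. The 1 lower was Mef2c, which had a second start-site pair that was higher in microglia, and 6 of the 74 list genes with a start-site pair had such pairs called in both directions. Mef2a, a MADS-box factor, had 486 and 413 tags against 34.6 and 34.5 (3.66 ± 0.166, SE; limma adjusted p = 1.01e-24). Smad3, which transduces TGF-beta signals, had 652 and 573 against 65.7 and 61.0 (difference 3.25), Batf3 171 and 184 against 13.03 and 19.8 (3.39), Maf 114 and 111 against 18.7 and 21.5 (2.43), and Cebpa 461 and 329 against 78.7 and 68.9 (2.39). The TGF-beta receptor gene Tgfbr1 had 646 and 482 against 90.1 and 83.0 (2.68), and the phagocytic receptor gene Mertk 237 and 216 against 16.4 and 11.29 (3.96). All 6 effectors were called higher in microglia, and Cd68 had 469 and 451 against 18.7 and 27.1 (4.29). Further lysosomal genes were nearer to parity, with differences of 1.59 at Cst3, which encodes cystatin C, 1.12 at the protease gene Lgmn (484 and 418 against 216 and 198), and 0.95 at the progranulin gene Grn. DESeq2 did not call Grn (0.33, adjusted p = 0.189).

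Most paired start sites of synaptic genes had more tags in NeuN+ nuclei. Of 6 presynaptic and cytoskeletal genes 5 were lower in microglia, with a median of -0.92. Over all start-site pairs 22.9% were called lower in microglia, or 5940 of 13495 by median ratio. Syn1 had 14.7 and 16.1 tags against 113 and 99.96 (-2.71 ± 0.225, SE; limma adjusted p = 4.84e-15). Tubb3, a neuronal tubulin, had 55.3 and 69.5 against 138 and 120 (-1.04), the glycolytic enzyme gene Eno2 51.9 and 54.2 against 129 and 111 (-1.16), and the vesicle-priming gene Unc13a 55.3 and 47.4 against 86.1 and 94.9 (-0.81). A second start-site pair of Eno2 was called higher in microglia (1.44). The GABA-B receptor gene Gabbr2 had 13.8 and 16.1 against 116 and 141 (-3.02), and the potassium channel gene Kcnq3 8.64 and 18.6 against 161 and 152 (-3.52), while Cacna1c, a calcium channel gene, was higher in microglia (35.4 and 34.7 against 19.8 and 20.9, 0.76, limma adjusted p = 0.00892), a call lost by median ratio (0.14, adjusted p = 0.609). The other 4 of the 6 ion channels did not pass the test. Among 5 glutamatergic genes 2 were lower in microglia, the vesicular transporter gene Slc17a7 (25.9 and 32.2 against 86.7 and 70.6, -1.41) and the PSD-95 gene Dlg4 (20.7 and 12.7 against 51.6 and 37.8, -1.39), and 2 were higher. One of these was Camk2a, with 75.2 and 91.5 tags in microglia and 13.6 and 12.4 in NeuN+ nuclei (2.59) whereas its highest NeuN+ start-site peak, at another annotated start site of the gene, was an unpaired one of 107 and 106 tags. Of 6 neuronal transcription factors with a pair, 5 were higher in microglia and 0 lower, by library total, or 4 and 0 by median ratio. Counting every start-site pair of these genes gave 8 higher and 1 lower, or 6 and 3 by median ratio. Dlx1 had 75.2 and 68.6 against 8.5 and 10.7 (2.79). In the SgshKO libraries the signs at Unc13a, Slc17a7 and Eno2 were the opposite (0.88, 0.77 and 0.073).

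**Figure D5:**
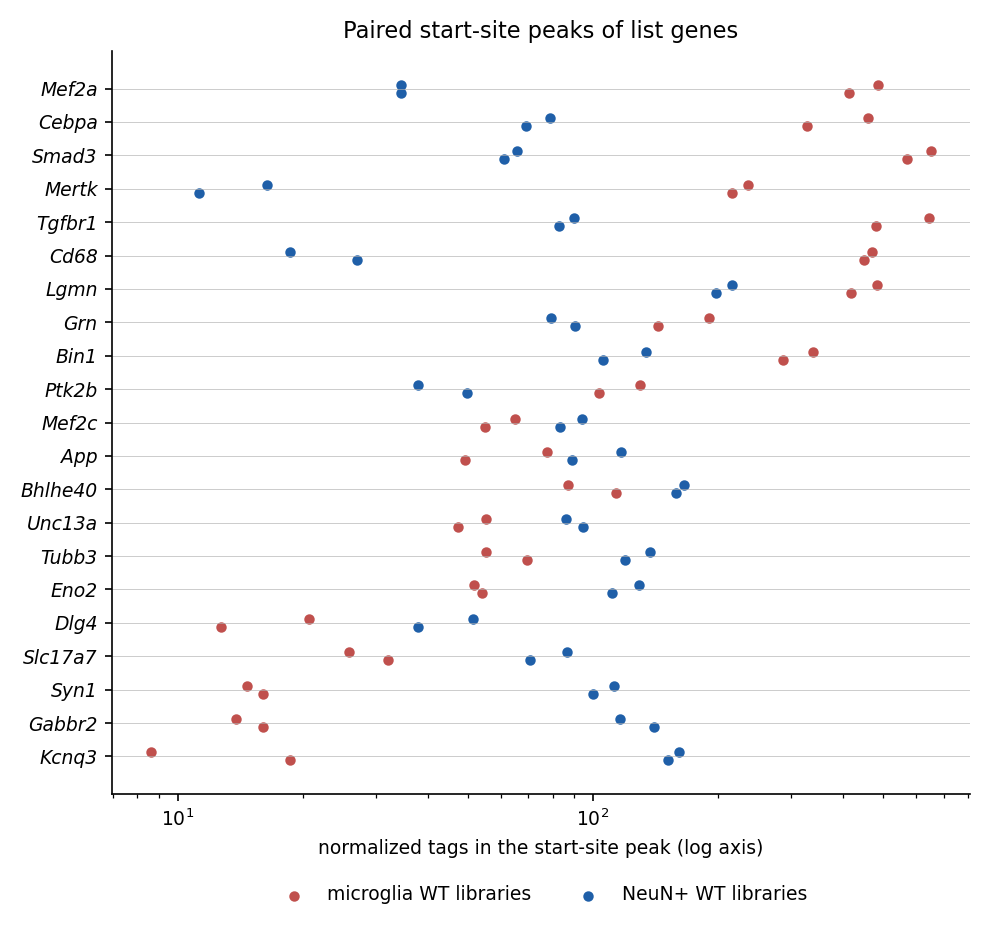
Normalized tags (log axis) in the paired start-site peak of 21 list genes, 1 point for each WT library, red for microglia and blue for NeuN+ nuclei. The points of the 2 sorts do not overlap at any of the 21 genes, with Mef2a and Cd68 far to the right in microglia and Kcnq3 and Gabbr2 far to the right in NeuN+ nuclei.

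Genes with known roles in both cell types had start-site peaks in both tables at 10 of 10. Of these pairs 6 were higher in microglia and 3 lower, or 4 and 4 by median ratio, beside 46.2% and 22.9% of all start-site pairs. Bin1, a membrane-bending protein tied to Alzheimer's disease risk, had 339.6 and 287 tags against 134 and 106 (1.38), and the kinase gene Ptk2b 130 and 103 against 38.0 and 49.7 (1.39). Sorl1, a sorting receptor for the amyloid precursor protein, had 65.7 and 63.5 against 38.0 and 27.1 (0.99), which median-ratio scaling reduced to 0.37 (limma adjusted p = 0.111). App itself had 77.8 and 49.1 against 117 and 89.2 (-0.71, limma adjusted p = 0.00138), a call lost without microglia replicate 2 (-0.39, adjusted p = 0.161) or NeuN+ replicate 1 (-0.52, adjusted p = 0.0936). Mef2c, a factor of microglia and of excitatory neurons, had 64.8 and 55.1 against 94.0 and 83.6 (-0.56, limma adjusted p = 0.00756), also lost without microglia replicate 2 (-0.45, adjusted p = 0.0595) or NeuN+ replicate 1 (-0.48, adjusted p = 0.132). Its second start-site pair, at chr13:83523736-83523983, went the other way, with 128 and 96.6 against 17.6 and 16.4 (2.64, limma adjusted p = 7.67e-15). Bhlhe40 had 87.3 and 114 against 166 and 159 (-0.70). Of 16 housekeeping genes with a paired start-site peak, 7 were higher in microglia and 4 lower (5 and 9 by median ratio), shares near those of all start-site pairs. The differences ran from -1.37 at Ppia to 4.01 at Ywhaz, where the pair was centred at -861 bp from the start site. Another Ywhaz pair, centred at 180 bp, had 1.60. Of the 16 genes 3 had start-site pairs called in both directions. Those called higher in microglia were at 1.23 and 1.39 for Ppia, 1.29 for Eef1a1 and 1.47 for Eef2. Gapdh had 398 and 343 against 217 and 193 (0.85), and DESeq2 left it uncalled at 0.21 (adjusted p = 0.205). Eef1a1 had 196 and 175 against 266 and 263 (-0.51), a call lost without NeuN+ replicate 1 (-0.50, limma adjusted p = 0.0775) or NeuN+ replicate 2 (-0.52, adjusted p = 0.0672). In the SgshKO libraries Bhlhe40, this Mef2c pair and Eef1a1 had the opposite sign (1.655, 0.39 and 0.40). Over all lists 11 of the 19 start-site pairs called higher in NeuN+ nuclei had the opposite sign in the SgshKO libraries, against 0 of the 40 called higher in microglia. The lists were not alone in this. Of all 4208 pairs called higher in NeuN+ nuclei, 2308 (54.8%) kept their direction there, as did 12795 of the 13126 called higher in microglia.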

How the data were processed

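ATAC-seq tags in peaks of WT microglia and WT NeuN+ nuclei were compared. The authors deposited 1 table per sort, with tag signal normalized to 10000000 tags per library per the file headers, over peaks merged from WT and SgshKO libraries per the tables' names. The submitters' processing notes name Bowtie2, HOMER and mm10. How reads were shifted and duplicates treated is not stated in the labels or headers. The deposited peak score served only as a filter. The headers give each library's total, from which 100% of the values gave whole reads within 0.01.

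Peaks were paired at 50% reciprocal overlap. Gene names turned into dates in the tables (169 microglia and 202 NeuN+ peaks) were restored by Entrez ID. Pairs were tested with limma 3.58.1 on log2(tags + 1), adjusted over all 24964 pairs. limma, edgeR 4.0.16 and DESeq2 1.42.0 ran in R 4.3.3. On simulated reads for these 24964 pairs, limma recovered 70% of 100 pairs changed 2-fold and 94% of 100 changed 4-fold, with 10 false calls. All other simulated pairs had equal means in the 2 sorts, so these values do not cover errors from scaling. NeuN+ replicates differed little beyond counting noise (chi-square over degrees of freedom 1.08; 1.53 in microglia). A list gene was described by its start-site pair with the highest mean over the 4 libraries.

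Named pairs were the 5 largest called differences per direction and place (within 1000 bp of a start site or farther) with non-overlapping libraries and a mean of at least the median pair (41.3 tags). Named unpaired peaks were the 5 highest per table and place, and genes the 8 with most unpaired peaks. Peaks on Y and on unplaced or mitochondrial sequence were not named, and each gene was named once per class. Of 221 list genes, 217 were in the tables, and some of these are not reported here by name. The comparison, its members and its lists were chosen with earlier results of these data known. Promoters came from RefSeq.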

Additional observations from a re-analysis of the deposited data

Results flagged for a closer look

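Each of the following 5 paired start-site peaks was lower in microglia in every WT library, yet higher in microglia in every SgshKO library. The difference between genotypes was not tested. Bhlhe40 was at -0.70 in WT, and its SgshKO libraries had 302 and 388 tags in microglia against 103 and 113 in NeuN+ nuclei. Unc13a was at -0.81 in WT, with 93.5 and 106 against 52.4 and 55.2 in SgshKO. Slc17a7 was at -1.41 in WT, with 49.4 and 41.8 against 27.9 and 24.8 in SgshKO. Mef2c was at -0.56 in WT, with 51.1 and 47.4 against 32.1 and 43.2 in SgshKO. Eef1a1 was at -0.51 in WT, with 245 and 208 against 167 and 175 in SgshKO. The share of tags in paired peaks moved the same way: 20.8% and 18.3% in WT against 26.5% and 23.8% in SgshKO microglia, and 13.4% and 12.8% against 9.1% and 8.95% in NeuN+ nuclei. Its part in these values was not tested.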

How the results depend on the processing

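The counts of 13126 pairs higher in microglia and 4208 higher in NeuN+ nuclei depended on the scaling. The alternatives gave 8378 and 8452 by median ratio, 7598 and 8811 with quantile normalization, 8570 and 8507 with edgeR and TMM, 6398 and 6349 with DESeq2, and 8859 and 7995 with equal sums over the pairs. edgeR with library totals, an alternative chosen after seeing the data, gave 13307 and 4214. Fewer pairs were tested at 80% reciprocal overlap (5755 and 1760 of 11124 pairs) and with a peak score of 1000 in both tables (8194 and 3146 of 15644). SgshKO libraries in place of WT gave 14843 and 1432. Leaving out 1 library gave 10911 to 12519 and 3046 to 4256, where the lone library is assumed to vary like the others. The replicate block gave 13365 and 4390. Replicate numbers were not shown to pair the libraries (correlation of same-numbered deviations 0.00066). NeuN-only peaks fell from 77609 to 37760 with a score of 1000 and 36955 with at least 10 tags in both WT libraries; microglia-only peaks stayed within 1.5 times of 61567.

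Of 1068 alternative values for 51 named pairs, 1044 kept their direction and call, 18 lost the call and 6 turned, all 6 with SgshKO libraries: Bhlhe40 1.655, Eef1a1 0.40, Eno2 0.073, Mef2c 0.39, Slc17a7 0.77 and Unc13a 0.88. Of the calls higher in NeuN+ nuclei, 54.8% kept their direction in SgshKO libraries. NeuN-only peaks had medians of 10.8 and 10.7 tags, so counting error is large at a single low peak.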

Other observations

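Nearest-gene names hid different genes in the 2 cell types. Umps, a pyrimidine synthesis gene of 12.3 kb, was the nearest gene of 52 microglia-only and 93 NeuN-only peaks, but all 93 of the NeuN-only peaks lay in the body of its neighbour Kalrn, a guanine nucleotide exchange factor of dendritic spines, and 32 of the 52 microglia-only peaks lay in Itgb5, an integrin subunit. Fam105a was nearest to 37 microglia-only and 53 NeuN-only peaks, of which 48 NeuN-only peaks lay in Trio, another such exchange factor. The other 12 named here, all microglia-only, lay in Fam105a itself, whose current symbol is Otulinl. Peaks nearest to Slc45a1 lay in Rere in both tables, at 22 of 31 and 22 of 31. Other genes held both kinds in their own body. Gse1 had all 40 of its microglia-only and all 37 of its NeuN-only peaks inside the gene, at medians of 32.1 and 11.0 tags, and Nav2, a neuron navigator gene, had 51 of 55 and 39 of 40. Of 20318 genes nearest to a peak of either table, 9828 had unpaired peaks of both kinds, and 359 had at least 10 of each. These genes were singled out after their values were seen.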
